A study of Mus musculus with 4 samples.

Results

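The genes described here encode the secreted and membrane-bound metalloproteinases of the extracellular matrix and their inhibitors. They were taken by symbol alone, as every row of the deposited table named Mmp, Adamts, Adamtsl or Timp followed by a number and at most one letter. This gave 48 of the 24873 genes in the table, namely 21 matrix metalloproteinases (MMPs), 18 ADAMTS proteases, 5 ADAMTS-like genes and 4 TIMPs. Mmp7, Mmp20 and Adamts13 were not analysed here.

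RNA-Seq was performed on brain cells of mice in which a tamoxifen-activated Cre recombinase is driven by the VE-cadherin promoter and both Mgp alleles are floxed (VE-cadherin cre/ERT2 Mgp fl/fl, given as Cdh5cre;Mgpflox/flox in the sample labels). VE-cadherin is an endothelial adhesion protein, so the promoter directs the recombinase to endothelial cells (ECs). Tamoxifen was given at 75 mg/kg once a day over 5 days to mice aged 10 weeks, the control group had the same genotype and received no tamoxifen, and cells were taken on day 9. The cells are described as CD31+CD45- by the study, and as tdTomato+ by the labels. Each group had 2 libraries, and the cells of each library were pooled from 3 mice. The tamoxifen libraries therefore differ from the controls by the drug as well as by the allele it recombines, and these cannot be told apart in this design.

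MMPs and ADAMTS proteases are zinc-dependent enzymes that are made as inactive precursors and activated when a propeptide is cut off. MMPs degrade collagens, gelatins, laminins and other proteins of the basement membrane and interstitial matrix, whereas many ADAMTS proteases cut proteoglycans or trim procollagens, and ADAMTS-like proteins share their matrix-binding domains without the protease. TIMPs bind the active site of these enzymes and block it. In brain vessels, Mmp2 and Mmp9 are best known for breaking down the basement membrane beneath the endothelium.

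Depth was high in all libraries, with 37475154 and 41025014 reads on genes in the controls and 35387438 and 49799321 in the tamoxifen libraries. Values below are normalized read counts, that is, reads divided by one factor per library. Mgp itself was measured at 1094 and 1352 in controls and at 945 and 909 in tamoxifen libraries (log2 fold change -0.39, SE 0.18, adjusted p = 0.0986), so the targeted gene was lower but did not pass the test. Endothelial identity genes were present in all libraries, yet all 7 endothelial markers examined were lower after tamoxifen, with summed counts of 874752 and 846104 against 148704 and 75258. Markers of several other cell types were higher. The sum over 9 neutrophil markers was 304 and 247 in controls and 111818 and 83397 after tamoxifen, with Ly6g at 0 reads in both controls. The sum over 6 fibroblast markers was 2257 and 3213 against 69745 and 59759, and over 5 astrocyte markers 23768 and 26556 against 97112 and 208669. Of the other lists, 4 of 4 pluripotency markers, 4 of 4 osteoblast markers, 4 of 5 oligodendrocyte, 3 of 4 choroid plexus, 2 of 5 microglial and macrophage, 2 of 6 pericyte and 1 of 4 smooth muscle markers were called higher, and none was called lower. Over all tested genes, 28.6% were called higher and 16.0% lower, so the pericyte and smooth muscle counts lay near the share of all genes. In such bulk samples, fewer cells of a type and less RNA per cell cannot be told apart. The summed pluripotency markers were 38 and 51 in controls and 30157 and 23478 after tamoxifen, the oligodendrocyte markers 307 and 274 against 3078 and 3138, and the smooth muscle markers 1034 and 1974 against 1289 and 2682. The part of these markers in the results below was not tested.

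Metalloproteinase and TIMP genes mostly rose after tamoxifen. The limma test was run on log2(count + 1) of every gene whose average count reached 10, and calls needed both an adjusted p below 0.05 and a log2 fold change beyond 1 in either direction. Of the 48 genes, 42 were tested. Of these, 31 were called higher, where 28.6% of all 20485 tested genes were, and 7 were called lower, where 16.0% of all tested genes were. Mmp3, Mmp10, Mmp13, Adamts3, Adamts18 and Adamts20 averaged below 10 in controls and were tested only through their tamoxifen values. They could therefore not be called lower. Adamts6, Adamts9, Adamtsl4 and Mmp23 were not called. The median log2 fold change was 2.52 over the tested members and 0.05 over all tested genes. In 33 of the 42 tested genes both tamoxifen libraries lay above both controls, as did 43.1% of all tested genes, and in 7 both lay below, as did 39.2% of all tested genes. By family, 12 of 16 tested MMPs, 13 of 17 ADAMTS genes, 3 of 5 ADAMTS-like genes and 3 of 4 TIMPs rose.

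The counts depended on both tamoxifen libraries. Without the first, 16 members were called higher, and without the second, 13 were, where the lone tamoxifen library is assumed to vary like the controls, while 31 and 30 were without the first and the second control. The cause of the drop was not tested. Scaling moved the median of all genes from 0.05 to 0.52 with equal library totals and to -0.23 with quantile normalization, and the calls over all genes from 5867 higher and 3284 lower to 7206 and 1838 and to 4615 and 5509. Members called higher and lower numbered 31 and 5 with equal totals and 24 and 5 with quantile normalization. The p-values measure only the spread between these libraries, and an exact permutation test of 2 against 2 could not give a p below 0.333.

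**Figure D1:**
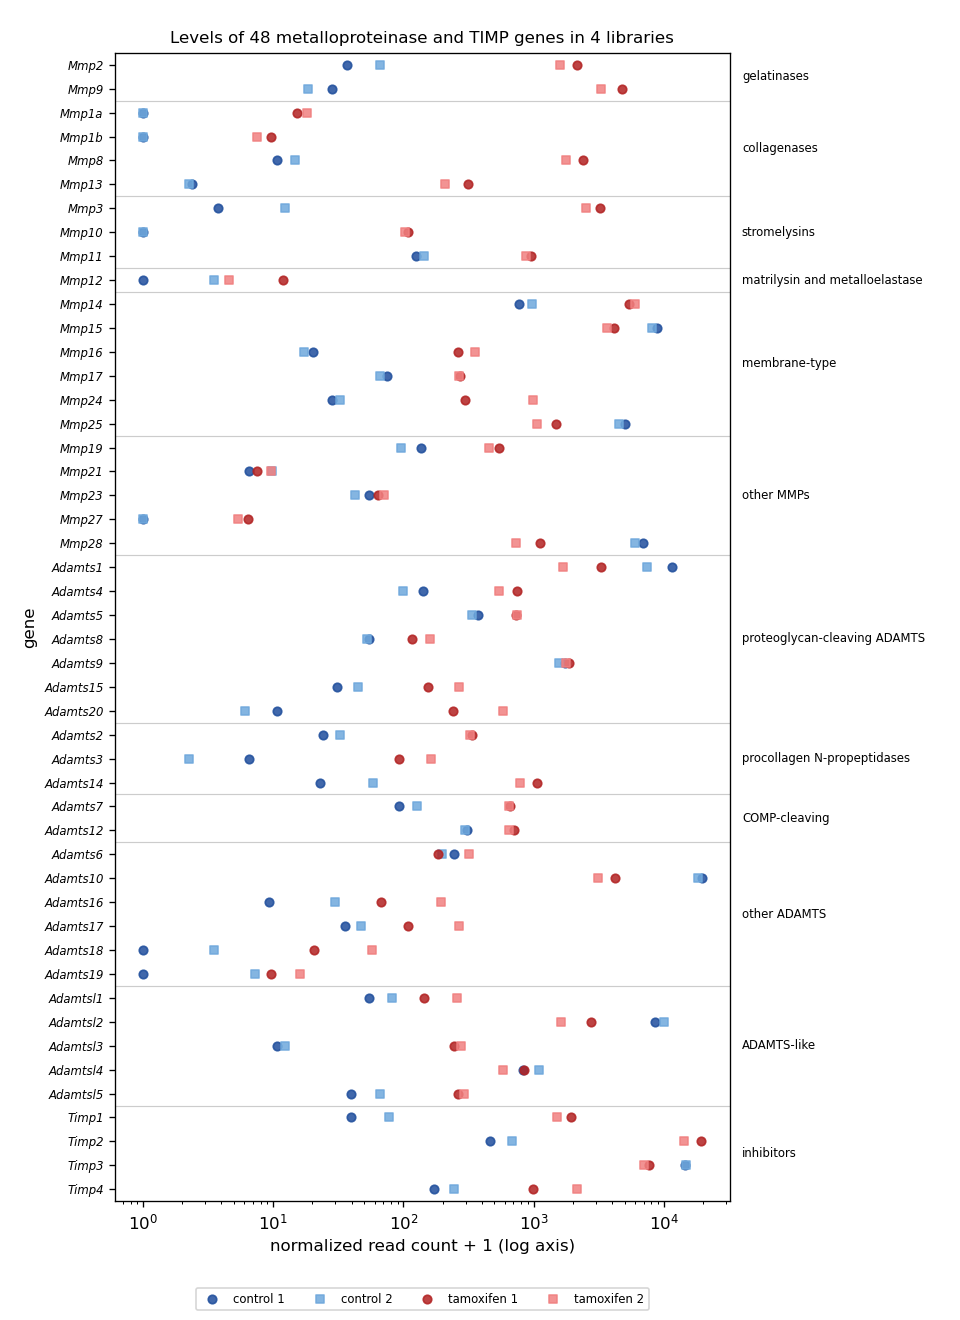
Normalized read count plus 1 (log axis) of each of the 48 genes in the 2 control libraries (blue) and the 2 tamoxifen libraries (red), grouped by the role of the protein. The tamoxifen points of Mmp3, Mmp8 and Mmp9 lie far to the right of their control points (4744 and 3297 against 27.4 and 17.5 for Mmp9), whereas those of Timp3, Mmp15, Mmp25, Mmp28, Adamts1, Adamts10 and Adamtsl2 lie to the left.

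The members that fell were those with the highest levels in control cells. Per kilobase of exon, the 7 members with the highest level in controls were Timp3 (1816 normalized counts per kilobase), Adamts1 (1729), Mmp15 (1574), Adamts10 (1447), Adamtsl2 (1052), Mmp25 (899) and Mmp28 (867). These were also the 7 members called lower. The next in the order were Adamtsl4 (183), Mmp14 (141) and Timp2 (128), and no member from there on was called lower. This match is partly fixed in advance, since the control values enter both the order and the fold changes. Members tested only through their tamoxifen values, and members not tested, could not be called lower. The share called lower among all genes of like control level was not computed, so the match cannot be read as particular to the members. The same 7 genes led when the median transcript length was used instead, in another order. The 7 fell by 1.0 to 2.84 on the log2 scale, and the 7 endothelial markers by 2.75 to 3.33, so that Mmp28 alone lay within the range of the markers. The order of neighbours was not always larger than the spread, since Adamts1 alone differed between controls by a ratio of 0.641.

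**Figure D2:**
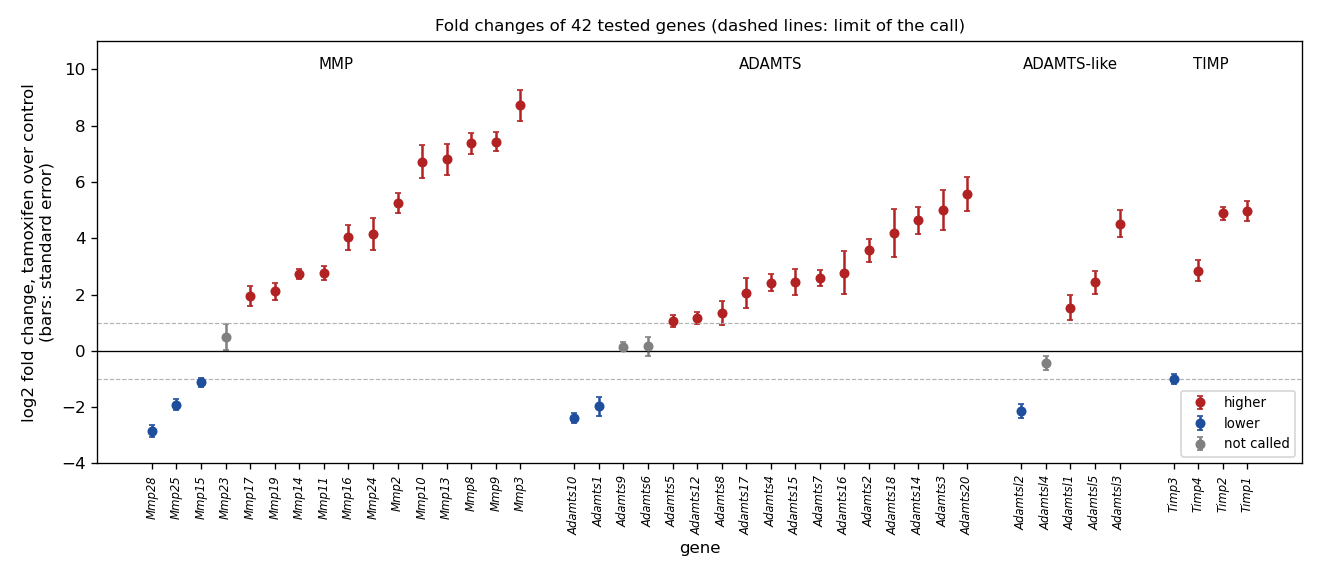
Log2 fold change of tamoxifen over control with its standard error for the 42 tested genes, by family and ordered by size, where red marks genes called higher, blue genes called lower and grey genes not called. The MMPs span -2.84 (Mmp28) to 8.72 (Mmp3), and the fitted value of Mmp10, which had no read in the controls, depends on the pseudocount.

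Both gelatinases, which cut denatured collagen and collagen IV of the basement membrane, rose. Mmp9 (chromosome 2, 164780439 to 164797771, GRCm39) was measured at 27.4 and 17.5 in controls and at 4744 and 3297 in tamoxifen libraries. Mmp2 (chromosome 8, 93553902 to 93580049) was measured at 35.6 and 65.1 in controls and at 2145 and 1604 in tamoxifen libraries. For both genes the groups were far apart, although the controls differed by a ratio of 1.83 for Mmp2 and 0.640 for Mmp9 (second over first). The log2 fold change was 7.43 for Mmp9 (SE 0.33, adjusted p = 6.38e-06) and 5.24 for Mmp2 (SE 0.35, adjusted p = 2.87e-05). Mmp9 is a granule enzyme of neutrophils, and the summed neutrophil markers were 304 and 247 in controls and 111818 and 83397 after tamoxifen. Neutrophils are CD45+ cells, and the study describes the sorted cells as CD45-. Mmp2 is typical of fibroblasts, whose summed markers were 2257 and 3213 against 69745 and 59759. Which cells the Mmp9 and Mmp2 reads came from was not tested. Of the exon bases of Mmp2, 24.3% overlap the antisense gene Gm45472, and the strand setting of the counting is not given in the sources used here.

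The collagenases cut fibrillar collagen, and both that could be tested rose, of which Mmp13 was tested only through its tamoxifen values. Mmp8, the neutrophil collagenase, was measured at 9.59 and 13.8 in controls and at 2406 and 1783 in tamoxifen libraries (log2 fold change 7.37, SE 0.36, adjusted p = 8.95e-06). Mmp13, a collagenase of cartilage and bone, had 1 read in each control (1.37 and 1.25 normalized counts) and values of 314 and 208 after tamoxifen (SE 0.56, adjusted p = 6.72e-05). The ratio for Mmp13 was 191, with a 95% counting interval of 52.7 to 1584, which covers counting error only. The 4 osteoblast markers summed to 19 and 34 in controls and to 484 and 480 after tamoxifen, with Ibsp at 0 reads in both controls. Mmp1a and Mmp1b, the mouse interstitial collagenases, had no read in either control and were too low to test. Mmp1a was measured at 14.1 and 17.3 after tamoxifen, 3.99-fold the floor of 3 reads per control library, and Mmp1b at 8.67 and 6.47, 1.93-fold that floor. Both ratios leave out the counting error of the tamoxifen reads. The 2 genes are close copies of each other, so reads may be split between them and both values are uncertain.

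All 3 stromelysins rose, of which Mmp3 and Mmp10 act on proteoglycans, fibronectin and laminin and can activate other MMPs. Mmp3 was measured at 2.74 and 11.3 in controls and at 3254 and 2515 in tamoxifen libraries. Its log2 fold change of 8.72 (SE 0.56, adjusted p = 2.51e-05) was the largest of the 42 tested members in the limma fit. On the recovered reads Mmp10 was ahead of it, at 9.64 against 8.62 with edgeR and 8.78 against 8.67 with DESeq2. Mmp10 had no read in the controls and values of 107 and 101 after tamoxifen, at least 26.5-fold higher (adjusted p = 8.35e-05). Mmp11, which is activated inside the cell by furin, was already detectable in controls at 125 and 144 and rose to 950.5 and 876 (log2 fold change 2.76, SE 0.24, adjusted p = 8.65e-05). The median log2 fold change of the 3 was 6.72 as fitted and 4.73 with Mmp10 at its bound. Mmp12, the macrophage elastase, had 2 reads in one control and none in the other, and values of 10.8 and 3.59 after tamoxifen. Its ratio was 4.96 with a counting interval of 1.15 to 44.7, and the gene was not tested. The macrophage and microglial markers summed to 1131 and 2194 in controls and 2594 and 2571 after tamoxifen.

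Mmp8, Mmp13, Mmp3 and Mmp10 belong to a group of 8 neighbouring MMP genes. The group lies on chromosome 9 within 309 kb (chr9:7272514-7581891, GRCm39), in the order Mmp13, Mmp12, Mmp1b, Mmp3, Mmp1a, Mmp10, Mmp8 and Mmp27, with no gap above 150 kb between members. In the controls the 8 were barely detected, with no value above 13.8 normalized counts (11 reads), and their summed counts ranged from 13.7 to 28.8. In the tamoxifen libraries the sum was 6120 and 4638. The 4 that could be tested were called higher. Of them, Mmp3, Mmp10 and Mmp13 reached the average of 10 only through their tamoxifen values and could not have been called lower. Of the other 4, Mmp27 was at 0 reads in both controls and at 5.42 and 4.31 after tamoxifen, at least 1.24-fold higher.

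**Figure D3:**
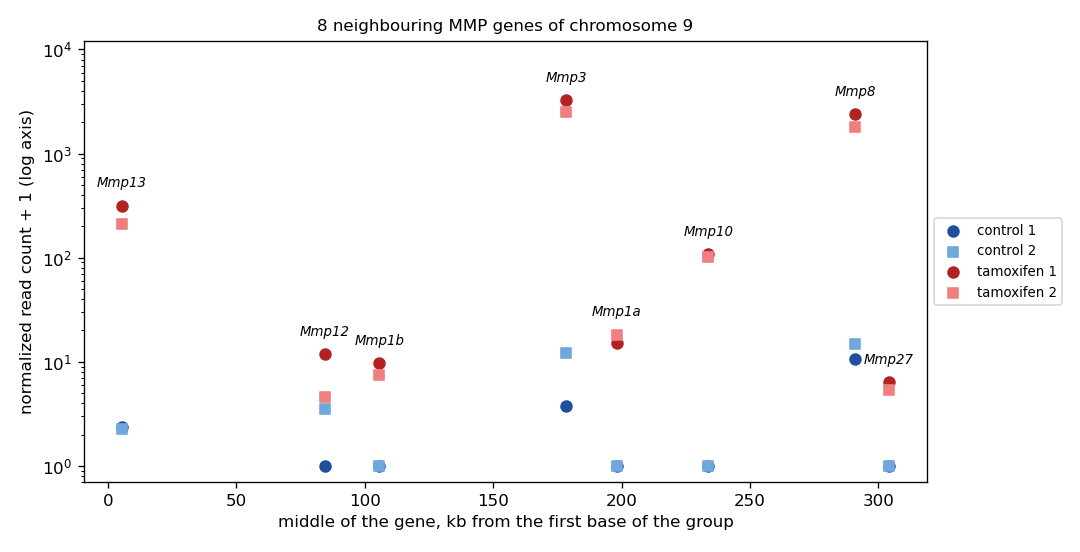
Normalized read count plus 1 (log axis) of the 8 MMP genes of the chromosome 9 group against the distance of the gene's middle from the first base of the group, for 2 control (blue) and 2 tamoxifen (red) libraries. Mmp3 (3254 and 2515) and Mmp8 (2406 and 1783) are highest in the tamoxifen libraries and Mmp27 (5.42 and 4.31) lowest, with no control value above 13.8.

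Promoters of MMP genes are known for binding sites of AP-1, the dimer of Fos and Jun proteins that responds to growth factors and cytokines. The 250 bases before each start were searched on both strands for the AP-1 site TGANTCA, which reads alike on both strands. The promoters are those of RefSeq (GRCm38.p6), which held 33 of the 48 members, without Mmp2 and Mmp9. The motif occurred in 7.82% of all 27025 genes with a promoter and in 6 of the 33 members (18.2%). All 6 lay in the chromosome 9 group, where 6 of 8 genes had it (75%). Among members called higher, 3 of 19 with a promoter had the motif (15.8%), and among those called lower, 0 of 6. A match is a run of letters and not a proven binding site. The 100 bases before the start are printed for 4 genes with the motif, whose match is in capitals, and for the 2 genes of the group without it, which include the strongly raised Mmp8.
Mmp13 (chr9:7272414-7272513, plus strand): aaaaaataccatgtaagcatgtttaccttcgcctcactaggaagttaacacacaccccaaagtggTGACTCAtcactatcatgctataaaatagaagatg
Mmp3 (chr9:7445722-7445821, plus strand): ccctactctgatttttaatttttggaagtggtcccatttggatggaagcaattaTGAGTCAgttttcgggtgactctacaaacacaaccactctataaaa
Mmp1a (chr9:7464041-7464140, plus strand): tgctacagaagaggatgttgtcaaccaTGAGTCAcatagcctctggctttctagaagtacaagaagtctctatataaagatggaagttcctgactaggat
Mmp10 (chr9:7502242-7502341, plus strand): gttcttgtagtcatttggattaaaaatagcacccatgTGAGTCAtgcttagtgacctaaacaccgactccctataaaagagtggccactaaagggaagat
Mmp8 (chr9:7558329-7558428, plus strand): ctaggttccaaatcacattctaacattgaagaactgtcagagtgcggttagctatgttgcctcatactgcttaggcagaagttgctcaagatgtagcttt
Mmp27 (chr9:7571296-7571395, plus strand): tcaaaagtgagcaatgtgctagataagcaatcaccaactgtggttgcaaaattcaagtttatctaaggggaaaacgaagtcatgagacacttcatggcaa
The match began 35 bases before the start in Mmp13, 46 in Mmp3, 63 in Mmp10 and 73 in Mmp1a, and in Mmp13 it read TGACTCA where the other 3 read TGAGTCA. Mmp12 and Mmp1b also held TGAGTCA, 44 and 93 bases before a start, and another start of Mmp12 had no match. Of the 4 genes of the group called higher, Mmp3, Mmp10 and Mmp13 had the motif, and Mmp8 did not have it in this window.

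The membrane-type MMPs are anchored at the cell surface and split by direction, with 4 called higher and 2 lower. Mmp14 (MT1-MMP), which activates Mmp2 at the cell surface, was measured at 768 and 971 in controls and at 5379 and 6060.3 after tamoxifen (log2 fold change 2.72, SE 0.18, adjusted p = 2.46e-05). Mmp15 (MT2-MMP) went the other way, from 8912 and 8078 to 4144 and 3673 (log2 fold change -1.12, SE 0.16, adjusted p = 0.000652). Mmp25, a membrane-type MMP held by a lipid anchor, fell from 5030 and 4500 to 1489 and 1068 (log2 fold change -1.91, SE 0.19, adjusted p = 0.000142). Per kilobase, the level of Mmp15 was therefore above that of Mmp14 in controls (1574 against 141) and below it after tamoxifen (724 against 928). The fall of Mmp15 was under the size limit with equal totals (-0.65) and with quantile normalization (-0.72). Mmp25 is known as leukolysin for its expression in leukocytes. It was lower in the libraries in which the neutrophil markers were higher, and any relation between the 2 was not tested. Mmp16, Mmp17 and Mmp24 were low in controls, between 16.3 and 74.0, and rose by 1.94 to 4.16 on the log2 scale. Mmp17 was not called without the first (1.93) or the second (1.96) tamoxifen library, nor with quantile normalization (0.71). Mmp24 differed most between the tamoxifen libraries, at 298 and 980, a ratio of 3.29, and it was not called without the second of them (log2 fold change 3.30). Its exons overlap the antisense gene Mmp24os1 over 10.3% of their bases.

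Among the remaining MMPs, Mmp28 (epilysin), a secreted MMP of epithelia, had the largest fall of all members. It was measured at 6956 and 6035 in controls and at 1112 and 730.4 after tamoxifen (log2 fold change -2.84, SE 0.22, adjusted p = 5.06e-05). Mmp19, a secreted basement membrane protease, was measured at 136 and 95.1 in controls and at 539 and 455 after tamoxifen (log2 fold change 2.11, SE 0.31, adjusted p = 0.000784), with 30.6% of its exon bases antisense to Tmem198b. Without the first or the second tamoxifen library the log2 fold change of Mmp19 was 1.99 or 2.24 and did not pass the test. Mmp23 had 53.4 and 41.3 counts in controls and 62.9 and 70.5 after tamoxifen. Its log2 fold change of 0.49 (SE 0.47, adjusted p = 0.391) did not pass the test and was -0.52 with quantile normalization. Mmp21 was not tested and its groups overlapped, at 5.48 and 8.76 in controls and 6.50 and 8.63 after tamoxifen.

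Of the 7 ADAMTS proteases that cut aggrecan, versican and related proteoglycans, 5 rose, 1 fell and 1 was not called. Adamts1 (chromosome 16, 85590579 to 85600009), an endothelial protease that also restrains angiogenesis, fell from 11533 and 7394 to 3283 and 1686 (log2 fold change -1.97, SE 0.33, adjusted p = 0.00148). Its libraries were spread within both groups but the groups did not overlap. Without the second tamoxifen library the fall was 1.49 on the log2 scale and did not pass the test. Adamts9 was not called, at 1740 and 1557 in controls and 1884 and 1778 after tamoxifen (log2 fold change 0.15, SE 0.16, adjusted p = 0.425). Adamts5, a main aggrecanase of cartilage, was measured at 375 and 334 in controls and at 737 and 745.5 after tamoxifen, with a log2 fold change of 1.06 (SE 0.21, adjusted p = 0.00332) that lay close to the size limit and was 0.41 with quantile normalization. Adamts5 was not called without the first or second tamoxifen library (1.07 and 1.06) or without the second control (0.98). Adamts4, Adamts8, Adamts15 and Adamts20 rose by 1.35 to 5.56, the most in Adamts20, which had 9.59 and 5.01 counts in controls and 241 and 582 after tamoxifen. Adamts4, Adamts8 and Adamts15 were not called without the first tamoxifen library (log2 fold changes 2.20, 1.58 and 2.83) or without the second (2.65, 1.12 and 2.05), and Adamts8 was also not called with quantile normalization (0.22). The substrates of the group rose too. Vcan (versican) had a log2 fold change of 3.46, Bcan (brevican) of 3.83, Ncan (neurocan) of 3.52 and Acan (aggrecan) of 5.73, all called higher.

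All 3 procollagen N-propeptidases, which trim fibrillar procollagens so that fibrils can form, rose. Adamts14 was measured at 21.9 and 57.6 in controls and at 1058 and 783 after tamoxifen (log2 fold change 4.64, SE 0.48, adjusted p = 0.000149). Adamts2 was measured at 23.3 and 31.3 in controls and at 338 and 324 after tamoxifen (log2 fold change 3.57, SE 0.40, adjusted p = 0.000228). Adamts3 was measured at 5.48 and 1.25 in controls and at 91.0 and 161 after tamoxifen (log2 fold change 5.0, SE 0.71, adjusted p = 0.00064). In each of the 3 genes both tamoxifen values lay above both control values of the same gene. Without the first or the second tamoxifen library, Adamts14 (4.42 and 4.85) and Adamts3 (5.41 and 4.59) kept large log2 fold changes but were not called, nor was Adamts2 without the second (3.60). Their substrates rose in the same libraries, with log2 fold changes of 5.95 for Col1a1, 4.29 for Col1a2 and 3.71 for Col3a1, which are also fibroblast markers.

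Both ADAMTS proteases that cut COMP, the cartilage oligomeric matrix protein, rose. Adamts7 was measured at 91.8 and 125 in controls and at 656 and 651 after tamoxifen (log2 fold change 2.60, SE 0.29, adjusted p = 0.000202). Adamts12 was measured at 308 and 297 in controls and at 711 and 643 after tamoxifen (log2 fold change 1.16, SE 0.22, adjusted p = 0.00266), a rise that was 0.43 with quantile normalization. Neither gene was called without the first tamoxifen library (log2 fold changes 2.59 for Adamts7 and 1.09 for Adamts12) or without the second (2.60 and 1.23). Comp itself was low, at 5.48 and 3.75 against 22.8 and 28.0.

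The other ADAMTS genes were led by Adamts10, which associates with fibrillin microfibrils. Adamts10 fell from 19542 and 18442 to 4237 and 3124 (log2 fold change -2.38, SE 0.19, adjusted p = 6.19e-05), without overlap. Adamts6, its closest relative, was not called, with overlapping groups at 242 and 195 in controls and 184 and 319 after tamoxifen (log2 fold change 0.16, SE 0.35, adjusted p = 0.722, and -0.95 with quantile normalization). Adamts17 rose from 34.2 and 46.3 to 107 and 265 (log2 fold change 2.05, SE 0.54, adjusted p = 0.0126), with a log2 fold change of 0.97 under quantile normalization, and it was not called without the first (2.7) or the second (1.41) tamoxifen library. Of the matrix genes examined, Fbn1 (fibrillin-1) and Fbn2 were called higher, with log2 fold changes of 2.90 and 4.31. Eln (elastin) was called lower, at -1.34. Adamts16 and Adamts18 rose from low levels, and neither was called without the first (3.54 and 4.93) or the second (2.02 and 3.45) tamoxifen library. Adamts16 was also not called with quantile normalization (1.69) or without the variance trend (adjusted p = 0.0558). For Adamts18, with 2 reads in one control and none in the other, the ratio was 31.7 with a counting interval of 8.55 to 266. Adamts19 was not tested, at 0 and 6.26 counts in controls and 8.67 and 15.1 after tamoxifen.

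Among the ADAMTS-like genes, Adamtsl2, a microfibril-associated protein that binds a latent TGF-β binding protein, fell from 8605 and 10087 to 2741 and 1615 (log2 fold change -2.15, SE 0.25, adjusted p = 0.000257). Adamtsl5 was measured at 38.4 and 65.1 in controls and at 261 and 288 after tamoxifen (log2 fold change 2.43, SE 0.41, adjusted p = 0.00158). Adamtsl4, a protein of the ciliary zonule, was not called, with overlapping values of 829 and 1101 in controls and 849 and 582 after tamoxifen (log2 fold change -0.44, SE 0.25, adjusted p = 0.158, and 0.03 with equal totals). Adamtsl1 and Adamtsl3 rose by 1.53 and 4.52 on the log2 scale. Without the first or the second tamoxifen library, Adamtsl5 (2.50 and 2.36) and Adamtsl1 (1.95 and 1.12) were not called, and Adamtsl1 was 0.34 and not called with quantile normalization.

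The tamoxifen libraries differed from each other for a subset of members. Of the 31 called higher, 9 were more than 1.5 times higher in the second tamoxifen library than in the first, namely Adamts3, Adamts15, Adamts16, Adamts17, Adamts18, Adamts20, Adamtsl1, Mmp24 and Timp4, and 1, Mmp13, was more than 1.5 times lower. Of the 7 called lower, Adamts1, Adamtsl2 and Mmp28 were more than 1.5 times lower in the second library. The shares of all tested genes beyond these ratios were not computed, so the counts cannot be read as particular to the members. The summed astrocyte markers (97112 and 208669), choroid plexus markers (8306 and 43828) and pericyte markers (44520 and 84253) were higher in the second library, and the endothelial markers (148704 and 75258) were lower in it. The controls differed in the same directions, with 23768 and 26556 for astrocyte, 903 and 3323 for choroid plexus, 32639 and 60414 for pericyte and 874752 and 846104 for endothelial markers. Whether these values bear on the members was not tested.

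The TIMPs diverged. Timp3 (chromosome 10, 86136236 to 86185371), the only TIMP that binds firmly to the matrix and an inhibitor of ADAMTS proteases and ADAM17 as well as of MMPs, was measured at 14675 and 14904 in controls. After tamoxifen it was measured at 7713 and 7039, lower in both libraries. Its log2 fold change of -1.0 (SE 0.17, adjusted p = 0.00138) sat at the size limit. The value ranged from -1.07 to -0.42 over the alternatives, stayed negative in all 14 of them and was not called in 5. Of its exon bases 21.3% are antisense to Syn3, a gene in which Timp3 is nested.

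Timp2 (chromosome 11, 118191887 to 118246566), which inhibits MMPs and also takes part with Mmp14 in the activation of Mmp2, rose. It was measured at 463 and 678 in controls and at 19384 and 14220.5 after tamoxifen (log2 fold change 4.89, SE 0.23, adjusted p = 7.99e-06). Timp1, the inducible TIMP that binds Mmp9, was measured at 38.4 and 76.3 in controls and at 1945 and 1521 after tamoxifen (log2 fold change 4.96, SE 0.36, adjusted p = 4.23e-05). Timp4, the TIMP of heart and brain, was measured at 171 and 242 in controls and at 993 and 2145 after tamoxifen (log2 fold change 2.84, SE 0.37, adjusted p = 0.000434). In Timp1 and Timp2 the first tamoxifen library was the higher one, as for the summed fibroblast, neutrophil, pluripotency and endothelial markers, and in Timp4 the second was, as for the astrocyte, choroid plexus, pericyte and smooth muscle markers. Timp4 was not called without the second tamoxifen library (log2 fold change 2.28), and 14.8% of its exon bases are antisense to Syn2.

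**Figure D4:**
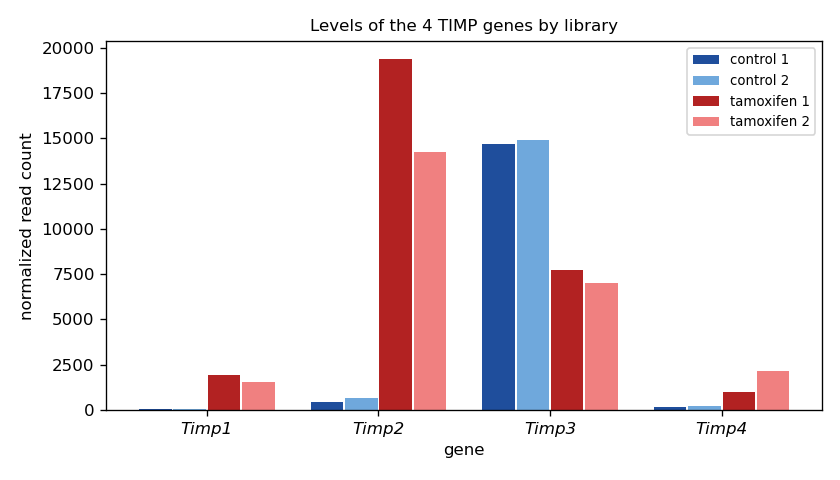
Normalized read count of the 4 TIMP genes in each library (bars from 0, blue for control and red for tamoxifen). The blue bars are tallest for Timp3 (14675 and 14904, against 7713 and 7039 after tamoxifen) and the red bars for Timp2 (19384 and 14220.5, against 463 and 678 in controls), without correction for gene length.

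The mixture of TIMP transcripts changed accordingly. Per kilobase of exon, Timp3 made up 92.5% and 89.2% of the summed TIMP level in controls and 14.8% and 16.9% after tamoxifen, while Timp2 went from 5.33% and 7.41% to 67.7% and 62.4%. With the median transcript length, Timp3 went from 98.7% and 98.0% to 53.5% and 56.5% and remained the leading TIMP, and Timp2 went from 0.737% and 1.06% to 31.9% and 27.0%. Thus Timp3 lost share and Timp2 gained share with both lengths, but which of them led after tamoxifen depended on the length.

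Set against the proteases, the TIMP share had no direction that held for both lengths. As a share of the summed MMP, ADAMTS and TIMP level per kilobase of exon, TIMPs made up 20.3% and 24.1% in controls (22.2% ± 2.71, SD, n = 2) and 41.0% and 40.3% after tamoxifen (40.6% ± 0.508, SD, n = 2), whereas with the median transcript length the means were 56.3% and 47.7%, in the opposite order. Timp3 has 8.15 kb of exon in all and a median transcript of 0.849 kb. The summed level per kilobase of exon was 3788 and 3446 for MMPs in controls and 7500 and 6202 after tamoxifen, and 3867 and 3015 for ADAMTS genes against 1728 and 1367. Within the MMPs, Mmp15, Mmp25 and Mmp28 together dominated the controls, with 43.4%, 24.6% and 23.4% of the summed MMP level per kilobase of exon in the second control, and Mmp3, Mmp9, Mmp8 and Mmp14 led after tamoxifen. Their shares were 24.1%, 17.1%, 13.2% and 11.6% in the first tamoxifen library and 22.5%, 14.4%, 11.9% and 15.9% in the second, so the order of the last 3 differed between libraries. With the median transcript length, Mmp14 and Mmp9 came before Mmp3.

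Regulators of these proteases were examined from a list of 20 genes, 19 of which were in the table and tested. Of these, 10 rose and 6 fell (median log2 fold change 2.26), where 28.6% and 16.0% of all tested genes did, and 3 were called lower without the second tamoxifen library. The 3 largest changes were rises of Serpinb2, an inhibitor of plasminogen activators, A2m, the plasma protease trap α2-macroglobulin, and Pcsk6, a proprotein convertase. A2m was measured at 46.6 and 82.6 in controls and at 1262 and 1757 after tamoxifen (log2 fold change 4.56, SE 0.35), and Pcsk6 had a log2 fold change of 3.99 (SE 0.27). Serpinb2 had 1 read in the 2 controls together and 59.6 and 41.7 counts after tamoxifen, a ratio of 74.7 with a counting interval of 13.1 to 2975. Genes that act directly on members moved in both directions. Reck, a membrane-anchored inhibitor of Mmp2, Mmp9 and Mmp14, fell from 4665 and 4446 to 1474 and 1117 (log2 fold change -1.83, SE 0.18, adjusted p = 0.000123), while its targets rose. Furin, which activates Mmp14 and Mmp11, fell (log2 fold change -1.32), as did Bsg, an inducer of MMPs (-2.78), and Plat (-1.87), whereas Plau, the urokinase that starts the plasmin cascade, rose (2.73). Lcn2, which binds Mmp9 and is a neutrophil granule protein, rose from 419 and 986 to 6860.4 and 4965 (log2 fold change 3.18, SE 0.37), and Lrp1, a receptor that clears MMP and TIMP complexes, rose as well (2.94).

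Among 11 related ADAM proteases, 10 were tested, of which 6 rose and 3 fell (median log2 fold change 1.91), against 28.6% and 16.0% of all tested genes. The count called higher was 3 without the first tamoxifen library and 2 without the second, and 1 was called lower with equal totals. The largest changes were rises of Adam23 (log2 fold change 5.76), which lacks protease activity, Adam19 (3.91) and Adam33 (2.67). The main sheddases Adam10 and Adam17, both inhibited by Timp3, fell by 1.33 and 1.40, and Adam15 by 2.34. Of 19 matrix substrates, 14 rose and 4 fell (median log2 fold change 3.52), against the same 28.6% and 16.0%. The largest changes were those of Col1a1 (5.95), Acan (5.73) and Reln (5.26), which encodes the neuronal glycoprotein reelin. Acan had 3 reads in one control and none in the other, and its ratio was 58.6 with a counting interval of 19.8 to 286. Without the second tamoxifen library, 9 substrates were called higher. The 4 that fell were Vwf, Eln and the basement membrane collagens Col4a1 and Col4a2, by 1.28 to 2.82, and 2 substrates were called lower without the first or the second tamoxifen library or the second control, and with equal totals or quantile normalization. Fn1, fibronectin, was not called at -1.27 (SE 0.50, adjusted p = 0.0598).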

How the data were processed

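The deposited table holds one signal per gene and library, a read count scaled by the authors with a single factor for each library. Per the submitters' processing notes and the study's methods, reads were aligned with STAR 2.7.10a to GRCm39 and counts were normalized with DESeq2 1.36.0 after removal of genes with low counts. The library kit keeps strand, but the strand setting, annotation release and low-count limit are not given in the sources used here. Columns lettered C were read as control and A as tamoxifen, and 0 other columns of values were present. Whole reads were recovered from the step of each column (100% whole within 0.01 read).

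Differences were tested in R 4.3.3 with limma 3.58.1 (lmFit, trended eBayes) on log2(normalized count + 1) wherever the average over libraries reached 10, with Benjamini-Hochberg adjustment over all 20485 genes tested and calls below an adjusted p of 0.05 and beyond a log2 fold change of 1 in either direction. Fold changes on this scale understate those of low genes. Floors were 3 reads per library, and ratios with 1 to 3 control reads have exact 95% counting intervals. Gene positions and exon lengths came from GENCODE M39, and promoters from RefSeq (GRCm38.p6). Summaries used Python 3.11.15. The scripts were tested on simulated data.

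The members, lists and tests were chosen with earlier results of these data known. Named genes were all TIMPs, Mmp2, Mmp9 and Mmp14, the 3 members with the highest group mean in each role group, members that went against their group or were not tested or not called, and from the other lists the 3 genes with the largest change and those acting on a described member. Other genes named with values, such as Mmp24, Adamts20, Adamts18 and further substrates, were added after their values were seen. Alternatives were equal library totals, quantile normalization, pseudocounts of 0.5 and 5, no filter, a mean of at least 100, no trend, a replicate block, each library left out, edgeR 4.0.16 and DESeq2 1.42.0 on the recovered reads, the adjusted p alone, and the median transcript length.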

Additional observations from a re-analysis of the deposited data

How the results depend on the processing

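Members called higher numbered 13 to 31 and those called lower 5 to 7 with one library left out, and the fall to 16 and 13 came without the first and the second tamoxifen library. Over the other alternatives 24 to 34 members were called higher and 5 to 7 lower. The replicate block left 31 and 7. Over genes, same-numbered libraries deviated together with a correlation of 0.0251. With 2 pairs this value cannot show whether they shared a batch. In both groups the summed pericyte, smooth muscle and choroid plexus markers were higher in the second library, whereas the fibroblast and pluripotency markers were so only in the controls. The calls of 21 of the 42 tested members were the same in every alternative in which they were tested, and no called value changed sign. These 21 include Adamts6, Adamts9, Adamtsl4 and Mmp23, which were not called in the main fit and stayed so. The TIMP share moved to 56.3% in controls and to 47.7% in tamoxifen libraries with the median transcript length, which reverses its direction. Calls depended on scaling for members near the size limit, such as Timp3, Mmp15, Adamts5 and Adamts12, and for some farther from it, since Adamts16 (1.69), Adamts17 (0.97), Mmp17 (0.71) and Adamtsl1 (0.34) were not called with quantile normalization. Genes with few control reads are limited by depth to bounds or wide intervals. The list counts were recomputed after the data had been seen. With one library left out, regulators called lower numbered 3 to 6, ADAMs called higher 2 to 6, and substrates called higher 9 to 14 and lower 2 to 3. With equal totals, 1 ADAM and 2 substrates were called lower, and with quantile normalization 2 substrates were.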
